A study of Mus musculus with 13 samples.

Results

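The comparison of control vector with no injection covers 9 of the 13 motoneuron RNA-seq libraries of the series, chosen by their titles. The AAV-miR ctrl group has 5 libraries (replicates 1, 3, 4, 5 and 6) and the non-injected SOD1 mutant group has 4 (replicates 2, 3, 5 and 6). By the labels, each library comes from 1 mouse. All 9 mice carried SOD1-G93A, a mutant human superoxide dismutase transgene that causes motor neuron disease, and all were killed at 65 days of age. AAV-miR ctrl mice had been given a control vector built from adeno-associated virus (AAV) by injection into the brain ventricles (ICV) at P2, and non-injected mice were untreated littermates. Neither group received the microRNA against human SOD1. The other 4 libraries, of mice given AAV-miR SOD1, entered the gene filter, the scaling and the estimate of the spread, but were not compared.

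The comparison asks what neonatal injection and the vector alone do to motoneurons. No mouse was injected without virus, so injection and vector cannot be told apart, and without wild-type mice the effect of the transgene was not measured. The series' design text places expression of the anti-SOD1 microRNA in astrocytes. The promoter and the sequence of AAV-miR ctrl are not given in the sources used here. Motoneurons were cut by laser microdissection, as pools of 500 cells per mouse, from sections of lumbar cord that had been frozen inside its vertebrae.

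AAV particles bind cell-surface glycans and receptors, pass through endosomes and the Golgi apparatus, and release a DNA genome in the nucleus. Cells can sense such nucleic acids through receptors such as Tlr9, which leads to type I interferon and to interferon-stimulated genes. A vector that expresses a microRNA also draws on Drosha, Dicer1 and the Argonaute proteins, which process and load the cell's own microRNAs. Spinal motoneurons release acetylcholine at the neuromuscular junction, carry large neurofilament-rich axons and are the cells lost in amyotrophic lateral sclerosis (ALS).

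Levels are given as CPM, the counts of a gene per megacount of its library, after TMM scaling of the library sizes, and compare the same gene between libraries, not different genes. Values of single libraries follow the order of the replicate numbers above, AAV-miR ctrl first. The 9 libraries held 13.9 to 37.4 megacounts assigned to genes. None of 10 library measures differed between the groups beyond the spread between libraries. Depth was 24.9 ± 8.92 megacounts (SD, n = 5) in AAV-miR ctrl and 28.5 ± 9.69 (SD, n = 4) in non-injected mice. The two-sided exact permutation tests gave an adjusted p of 0.849 for each measure, where the smallest p this design allows is 0.00794 before adjustment. Depth did split by replicate number within both groups. Libraries numbered 5 and 6 held 29.7 to 37.4 megacounts, and those numbered 1 to 4 held 13.9 to 23.1. Reads aligned to several places made up 42.3 to 46.6% in the former and 49.9 to 53.8% in the latter. The cause of this split was not tested. Libraries of different groups were as alike as libraries of the same group. The median Spearman correlation of log2 CPM was 0.947 over the 20 pairs between groups, 0.944 over 10 pairs within AAV-miR ctrl and 0.941 over 6 pairs within the non-injected group.

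Several libraries stood apart. On the first principal component, with 26.2% of the variance, AAV-miR ctrl replicates 1, 3 and 4 (64.5, 55.0 and 22.1) and non-injected replicate 2 (70.4) lay on one side. AAV-miR ctrl replicates 5 and 6 (-58.7 and -39.5) and non-injected replicates 3, 5 and 6 (-42.7, -40.7 and -30.4) lay on the other. The count tables of both libraries numbered 3 carry column headers that name each other's group. The titles were followed, and the results were recomputed with these libraries exchanged and with both left out. Of the 45 genes named by rule with an unadjusted p under 0.05, 27 no longer had one after the exchange and 13 no longer had one without both. Igkv6-25 kept one after the exchange but in the opposite direction. Many of these genes had been picked for a small p under the titles. Over all genes, 780 had an unadjusted p under 0.05 after the exchange and 629 by the titles, with 235 shared. AAV-miR ctrl replicate 4 held both Xist (47.5 CPM), made in female cells, and the Y-linked gene Ddx3y (19.0 CPM). Whether that library holds RNA of more than 1 mouse was not tested.

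No gene passed the test for a difference between AAV-miR ctrl and non-injected motoneurons. By edgeR's quasi-likelihood test with Benjamini-Hochberg adjustment, 0 of 17403 genes reached 0.05 (0% called), and the smallest adjusted p was 1.00. The unadjusted p lay under 0.05 for 629 genes, or 3.61% of those tested, fewer than the 870 that equal groups would give on average. Of these, 240 (1.38% of the genes tested) were higher and 389 (2.24%) lower in AAV-miR ctrl. DESeq2 called 2 genes and limma-voom called 0. Without both libraries numbered 3 there were 237 genes higher and 446 lower at an unadjusted p under 0.05, again with 0 adjusted.

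The direction of the unadjusted calls rested on single libraries. AAV-miR ctrl replicate 1 held the highest level within its group for 107 of the 240 genes on the higher side, 44.6% of them. Without it, 149 genes were higher. On the lower side, non-injected replicate 6 was highest within its group for 173 of 389 genes and non-injected replicate 5 for 142. Without non-injected replicate 5 there were 409 genes higher and 217 lower, and without non-injected replicate 6 there were 251 lower. Leaving out non-injected replicate 2 gave 1008 genes in all, 455 of them higher.

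The size of difference that could have been missed depended on the level of the gene. The standard error of the log2 fold change had a median of 0.35 and quartiles of 0.25 and 0.55. For 8652 genes, 49.7% of those tested, the 95% interval lay within a 2-fold change in either direction, between -1 and 1 on the log2 scale. Above 100 CPM this held for 1337 of 1767 genes, and from 10 to 100 CPM for 6047 of 8099. From 1 to 10 CPM it held for 1267 of 5106 genes, and under 1 CPM for 1 of 2431. To each side of the estimate, the median interval reached 1.47-fold above 100 CPM and 3.42-fold under 1 CPM.

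**Figure D1:**
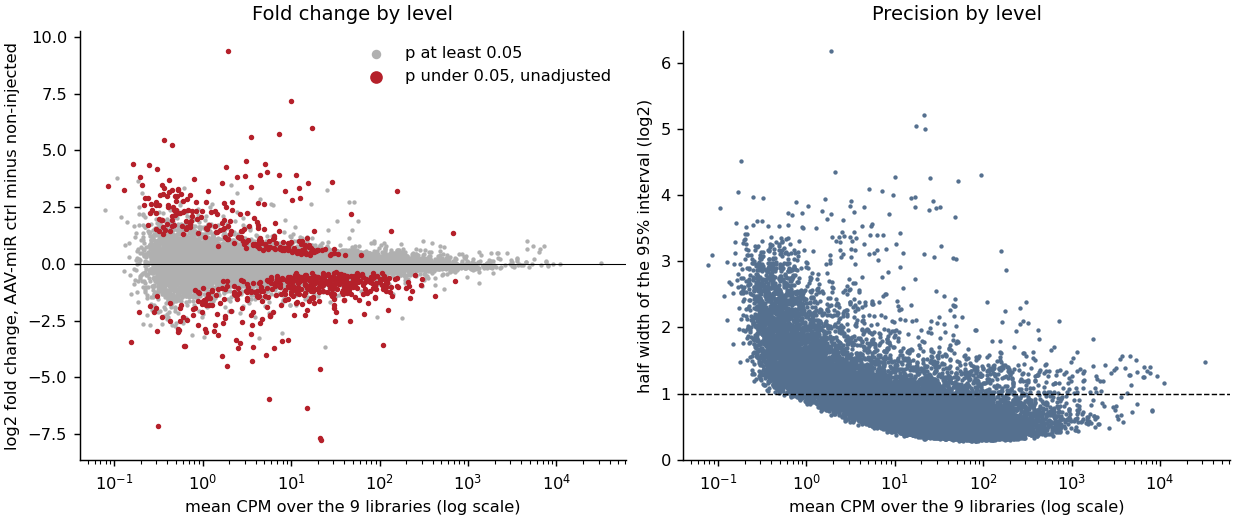
Each point is 1 of the 17403 genes, placed by its mean CPM over the 9 libraries (log scale); the left panel gives the log2 fold change of AAV-miR ctrl minus non-injected, with unadjusted p under 0.05 in red, and the right panel the reach of the 95% interval to each side. Most genes under 1 CPM lie above the dashed line at 1 (a 2-fold change), most genes over 10 CPM lie under it, and fitted values past 5 in either direction belong to genes with few or no counts in part of the libraries.

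The 24 genes with the smallest p (12 in each direction, at a mean of at least 1 CPM) were mixed in function. On the higher side they were Maml1, Cybrd1, Poc5, Igkv6-25, Tlr1, Phf8, Cd4, Prss35, Cx3cr1, Iglv3, Neurl1b and Med13. Their log2 fold changes ran from 0.62 to 7.17 and their unadjusted p from 0.000303 to 0.00576, with an adjusted p of 1.00 in edgeR. In 4 of these 12, Maml1, Poc5, Phf8 and Cx3cr1, the groups did not overlap. Over all genes, 52 (0.299%) were separated in this direction and 90 (0.517%) in the other.

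Maml1 (chr11:50255634-50292311 in GRCm38, minus strand), a transcriptional co-activator of Notch signalling, was at 8.35, 6.07, 6.15, 5.57 and 3.66 CPM in AAV-miR ctrl libraries. Non-injected libraries were at 1.85, 1.65, 2.57 and 1.97 CPM. All 5 injected libraries lay above all 4 others, with replicate 1 the highest. This was a log2 fold change of 1.56 ± 0.33 (SE), with an unadjusted p of 0.000303 and an edgeR adjusted p of 1.00, and DESeq2 gave an adjusted p of 0.0137. It was 1.5 without both libraries numbered 3 and 0.71 with these exchanged. The other gene that DESeq2 called, ENSMUSG00000087594 (adjusted p of 0.00315), has no symbol in the annotation used and was at 0.982 to 1.89 CPM against 0.0461 to 0.150 CPM. Its log2 fold change was 3.73, or 1.5 with the libraries numbered 3 exchanged.

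Poc5, a centriole protein gene, was at 13.4, 19.8, 18.4, 15.9 and 21.1 CPM in AAV-miR ctrl and at 6.14, 10.9, 10.5 and 12.3 CPM in non-injected libraries. The gap between the groups, from 12.3 to 13.4 CPM, was small beside the spread within each. Its log2 fold change was 0.83 ± 0.22 (SE). Phf8, an X-linked histone demethylase gene, was at 19.0, 17.2, 14.0, 14.1 and 14.1 CPM against 10.1, 10.7, 11.1 and 8.80 CPM, a log2 fold change of 0.62 ± 0.18 (SE). This was the smallest change of the 12, and within each group its values spread little.

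Cx3cr1, the fractalkine receptor gene by which microglia are recognised, was at 27.0, 11.7, 14.5, 12.3 and 12.9 CPM in AAV-miR ctrl and at 9.04, 4.21, 7.84 and 10.1 CPM in non-injected libraries. Replicate 1 stood far above the others of its group. The gene's log2 fold change was 1.00 ± 0.30 (SE), and the edgeR adjusted p 1.00. Cd4, a T helper cell and myeloid receptor gene, and Tlr1, a receptor for bacterial lipoproteins, had overlapping groups. Cd4 was at 4.42, 0.964, 3.97, 2.42 and 1.18 CPM against 0.323, 0.626, 0.449 and 1.28 CPM. Tlr1 was at 6.76, 2.79, 4.87, 1.29 and 0.914 CPM against 1.25, 0.228, 0.275 and 0.835 CPM. In both, AAV-miR ctrl replicates 1 and 4 were the highest of all 9 libraries.

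The largest fold change of the 12 rested on 1 library. Igkv6-25, an immunoglobulin light chain segment, had 1826 counts in AAV-miR ctrl replicate 3 and 1 to 28 in the other 8 libraries. With the libraries numbered 3 exchanged its log2 fold change turned from 7.17 to -5.69. Iglv3, another such segment, was at 29.2 and 94.1 CPM in AAV-miR ctrl replicates 1 and 4 and at 1.2 to 4.24 CPM elsewhere. Immunoglobulin segments are a family of similar genes whose reads can be shared. Exchanging the libraries numbered 3 also lowered the log2 fold changes of Poc5 to 0.39, of Phf8 to 0.29, of Cx3cr1 to 0.55 and of Tlr1 to 1.13. Without both of these libraries they were 0.85, 0.63, 0.91 and 2.16.

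On the lower side the 12 genes were Rab12, Otud3, Dexi, Zdhhc2, Eef1a2, Fzd9, Btbd2, Man2a2, Zxdc, Pank1, Ptov1 and Prkaca, with log2 fold changes from -2.25 to -0.71 and unadjusted p from 0.000592 to 0.00184. The groups did not overlap in 8 of them. In 11 of the 12 the highest library was non-injected replicate 5 or 6, the deepest of that group (37.4 and 35.8 megacounts). Non-injected replicates 5 and 6 were both above the other 7 libraries in all of these genes except Zdhhc2 and Eef1a2. With the libraries numbered 3 exchanged, 11 of these 24 genes no longer had an unadjusted p under 0.05.

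Rab12 (chr17:66494512-66519729, minus strand) encodes a small GTPase of endosome and lysosome traffic. AAV-miR ctrl libraries were at 21.8, 20.8, 24.1, 20.0 and 22.3 CPM. Non-injected libraries were at 28.6, 31.8, 63.2 and 64.6 CPM, all above the injected ones but themselves split into a lower and a higher pair. The log2 fold change was -1.11 ± 0.25 (SE), and -1.21 without both libraries numbered 3. In the libraries numbered 1 to 4 alone, 3 against 2, it was -0.43.

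Otud3, a deubiquitinase gene, was at 1.06, 0.916, 1.2, 1.5 and 1.9 CPM in AAV-miR ctrl and at 2.40, 3.53, 5.92 and 13.3 CPM in non-injected libraries. Its log2 fold change of -2.25 ± 0.51 (SE) was the largest of the lower 12. Fzd9, a Wnt receptor gene, ranged from 4.07 to 7.80 CPM against 7.06, 11.7, 26.5 and 59.1 CPM, with its highest values in replicates 5 and 6. AAV-miR ctrl replicate 1 was the lowest of its group. Prkaca, the catalytic subunit of protein kinase A, was at 78.5 to 100 CPM against 98.4 to 211 CPM. Eef1a2, the translation elongation factor form used by neurons and muscle, was at 38.7, 57.0, 45.0, 47.8 and 41.7 CPM against 55.8, 93.8, 70.7 and 90.9 CPM, with a single pair of libraries overlapping. Its log2 fold change was -0.76, or -0.36 with the libraries numbered 3 exchanged.

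Zdhhc2, a palmitoyltransferase gene, was separated without such a split. It was at 9.72, 15.1, 15.8, 13 and 11.9 CPM in AAV-miR ctrl and at 19.8, 27.2, 28.2 and 21 CPM in non-injected libraries, a log2 fold change of -0.88 ± 0.21 (SE). This was -0.44, at an unadjusted p of 0.149, with the libraries numbered 3 exchanged. Pank1, which makes the coenzyme A precursor phosphopantothenate, was at 11.8, 15.3, 15.7, 15.3 and 13.4 CPM against 28.1, 18.2, 31.8 and 36.8 CPM, a log2 fold change of -1.01 ± 0.26 (SE). For Pank1 the highest libraries were again non-injected replicates 5 and 6. In both genes every injected library was below every non-injected one, and the edgeR adjusted p was 1.00. Of the 24 genes, 9 lie across genes on the other strand, namely Maml1, Poc5, Phf8, Cx3cr1, Med13, Dexi, Zdhhc2, Man2a2 and Zxdc, and so do 45 of all 119 genes named by rule. Whether counting used strand is not given in the sources used here, so part of their counts may belong to those neighbours.

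**Figure D2:**
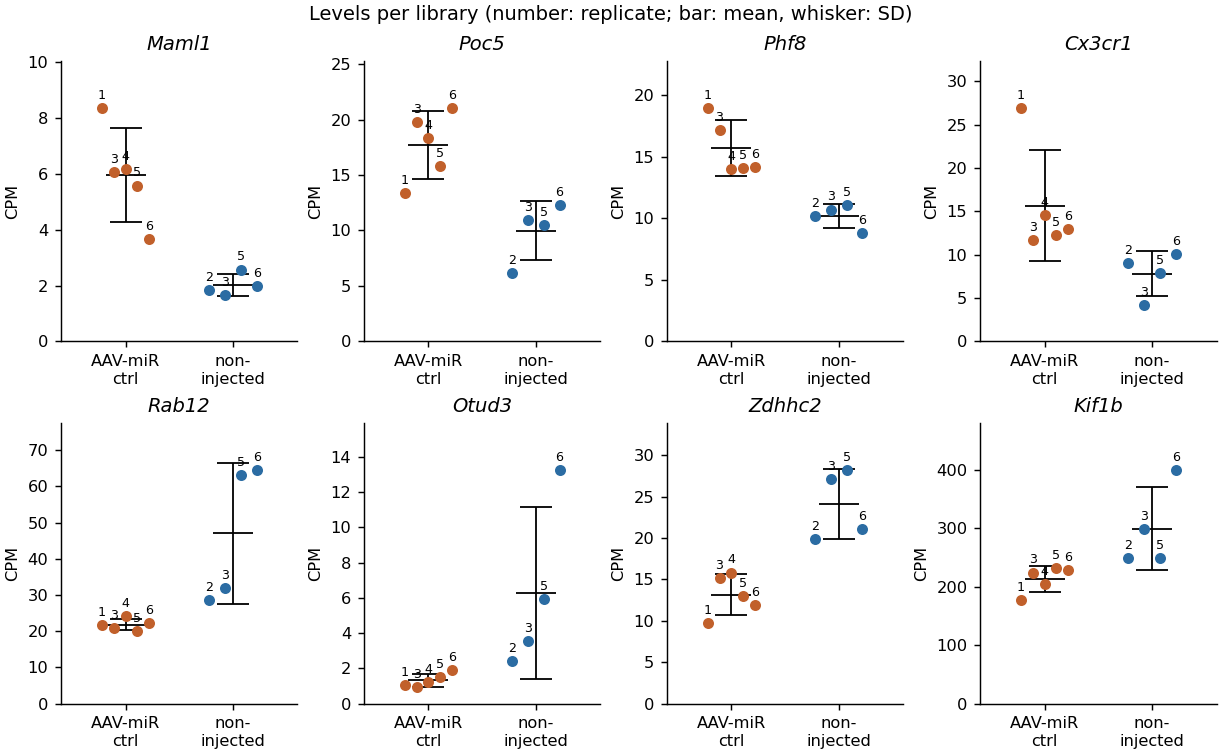
CPM of 8 genes in each library (points, numbered by replicate; wide bar, group mean; whiskers, SD; n = 5 and 4). The groups do not overlap in any of these 8 genes, and the non-injected libraries of Rab12 run from 28.6 to 64.6 CPM while the injected ones stay between 20.0 and 24.1 CPM.

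Motoneuron genes were detected in every library and did not pass the test. In 13 lists of neuronal genes, 187 genes were tested, of which 1 was higher (0.535%) and 5 lower (2.67%) at an unadjusted p under 0.05, against 1.38% and 2.24% over all genes. Their median log2 fold change was -0.11, against -0.01 over all genes tested. For 104 of the 187 (55.6%) the 95% interval lay within a 2-fold change in either direction. The median was under 0 in 12 of the 13 lists. In 10 of these 12 it was above 0 once the libraries numbered 3 were exchanged, and in 9 once both were left out. In the libraries numbered 1 to 4 alone it was -0.82 for identity factors and -0.61 each for cholinergic, neurofilament and synaptic vesicle genes. In that same fit it was 0.45 for immediate early genes and 0.12 for neurotrophic factor receptors. In these bulk pools, fewer cells of a type and less RNA per cell cannot be told apart.

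Among the motoneuron identity factors, 12 of 14 listed genes were tested, and 0 had an unadjusted p under 0.05. Isl1, a transcription factor that specifies motoneurons, was at 2.39, 9.49, 7.12, 16.4 and 11.1 CPM in AAV-miR ctrl and at 7.43, 21, 12.6 and 9.03 CPM in non-injected libraries. The groups overlapped, with AAV-miR ctrl replicate 1 the lowest of all. The log2 fold change was -0.42, with a 95% interval from -1.47 to 0.62. Mnx1, another such factor, was at 6.72 to 18.9 CPM against 6.97 to 21.1 CPM, with an interval from -1.30 to 0.33. The median over the 12 genes was -0.18. It turned to 0.30 with the libraries numbered 3 exchanged, and was 0.07 without both of them. In the libraries numbered 1 to 4 alone it was -0.82.

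Cholinergic genes make, load, recover or respond to acetylcholine, and 4 of the 12 tested had an interval within a 2-fold change. Chat, choline acetyltransferase, was at 74.9, 73.8, 87.2, 131 and 120 CPM in AAV-miR ctrl and at 82.9, 155, 98.5 and 100 CPM in non-injected libraries, with overlapping groups. Its log2 fold change was -0.16 (95% interval -0.70 to 0.37). Slc5a7, the choline transporter of the nerve terminal, was at 210, 301, 308, 408 and 427 CPM against 257, 589, 301 and 320 CPM, with a log2 fold change of -0.15 (95% interval -0.72 to 0.43). For both genes the interval excluded a 2-fold change. Of 12 cholinergic genes, 1 was lower at an unadjusted p under 0.05. This was Slc44a1, a choline transporter of many cell types, with a log2 fold change of -0.77 ± 0.30 (SE), or -0.65 with the libraries numbered 3 exchanged. It was at 24.7 to 45.4 CPM against 34.8 to 92.3 CPM, with non-injected replicate 5 the highest.

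Cholinergic levels varied more within the groups than between them. Summed over the 12 cholinergic genes, AAV-miR ctrl replicates 1, 3 and 4 were at 765, 973 and 1061 CPM and replicates 5 and 6 at 1901 and 1877. Non-injected replicate 2 was at 874, and replicates 3, 5 and 6 were at 2153, 1606 and 1409. The 4 low libraries were the same 4 that shared one side of the first principal component. Markers of alpha and fast motoneurons had 7 of 7 genes tested and 0 at an unadjusted p under 0.05, with a median of -0.12. Mmp9, a marker of vulnerable fast motoneurons that neutrophils and bone cells also make, ran from 379 to 1546 CPM against 261 to 1345 CPM. Among 8 gamma and slow motoneuron markers, 0 had an unadjusted p under 0.05. Esrrg, a marker of gamma motoneurons, had a log2 fold change of 0.10 (95% interval -0.53 to 0.74).

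**Figure D3:**
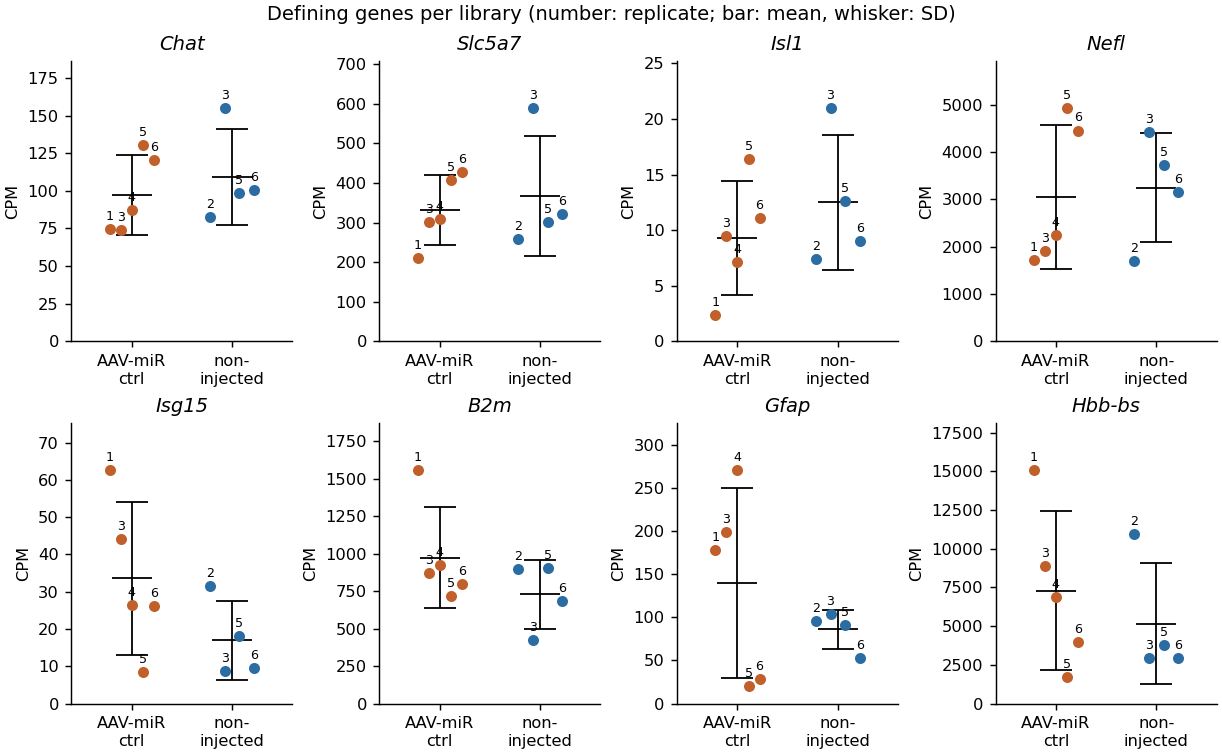
CPM of 8 defining genes in each library (points, numbered by replicate; wide bar, mean; whiskers, SD; n = 5 and 4), with 4 motoneuron genes above and Isg15 (interferon response), B2m (MHC class I), Gfap (astrocytes) and Hbb-bs (erythroid cells) in the lower row. In all 8 the groups overlap, and AAV-miR ctrl replicate 1 has the lowest Isl1 level (2.39 CPM) and the highest Isg15 level (62.7 CPM).

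Axonal structure and transport genes overlapped between the groups with the exception of Kif1b. Of 13 neurofilament and cytoskeleton genes, 0 had an unadjusted p under 0.05 and 9 had an interval within a 2-fold change. Nefl, the neurofilament light chain, was at 1723, 1904, 2245, 4934 and 4455 CPM against 1692, 4415, 3732 and 3154 CPM. Low libraries occurred in both groups, and the log2 fold change was -0.09 (95% interval -0.90 to 0.72). Nefh, the heavy chain, had -0.42 (95% interval -1.07 to 0.22).

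Of 16 axonal transport motors, 15 had an interval within a 2-fold change. One, Kif1b, was lower at an unadjusted p of 0.0196. Kif1b (chr4:149176319-149307693, minus strand), a kinesin that carries mitochondria and synaptic vesicle precursors, was at 177, 224, 205, 232 and 228 CPM in AAV-miR ctrl libraries. Non-injected libraries were at 249, 298, 249 and 400 CPM. The groups did not overlap, and the gap between 232 and 249 CPM was small. The log2 fold change was -0.49 ± 0.19 (SE), -0.49 without both libraries numbered 3 and -0.30 with them exchanged, and the edgeR adjusted p was 1.00. Kif5a, the neuronal kinesin mutated in some forms of ALS, had -0.12 (95% interval -0.73 to 0.48).

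Synaptic vesicle genes had a median of -0.14 over 20 genes tested. The 1 gene at an unadjusted p under 0.05 was Syn2, a synapsin, at 44.8, 48.4, 42.2, 60.2 and 72.8 CPM against 57, 95, 92.3 and 75.6 CPM. Its groups overlapped through AAV-miR ctrl replicates 5 and 6, and its log2 fold change was -0.57 ± 0.21 (SE). With the libraries numbered 3 exchanged it was -0.12. Snap25, a membrane fusion protein of the nerve terminal, had -0.05 (95% interval -0.83 to 0.72). The list's median was 0.35 with the libraries numbered 3 exchanged, 0.21 without both and -0.61 in the libraries numbered 1 to 4 alone.

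Receptors for fast transmission gave few differences. Of 16 glutamate receptor genes, 1 was higher and 1 lower at an unadjusted p under 0.05. Grik1, a kainate receptor subunit, was at 0.707, 17.6, 12.4, 1.37 and 1.83 CPM in AAV-miR ctrl and at 0.876, 1.71, 1.52 and 0.0894 CPM in non-injected libraries. It was high in AAV-miR ctrl replicates 3 and 4 alone, and its log2 fold change of 2.69 became -0.49 with the libraries numbered 3 exchanged and 2.31 without both. Grik5, another kainate subunit, was at 4.77 to 5.97 CPM against 4.98, 8.20, 12.2 and 10.3 CPM, a log2 fold change of -0.72 ± 0.28 (SE), or -0.40 with the libraries numbered 3 exchanged. Gria2, the AMPA receptor subunit that limits calcium entry, had -0.19 (95% interval -0.67 to 0.28).

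Inhibitory receptors had 0 of 15 tested genes at an unadjusted p under 0.05, from 17 listed. Glra1, the glycine receptor subunit of motoneurons, was at 89.6, 103, 90.7, 68.4 and 76.7 CPM against 99.0, 142, 55.3 and 51.2 CPM, and had a log2 fold change of -0.02 (95% interval -0.65 to 0.61). Its anchor Gphn had -0.03 (95% interval -0.45 to 0.39). Both intervals lay within a 2-fold change.

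Of 29 voltage-gated ion channel genes, 1 was lower at an unadjusted p under 0.05. This was Scn3a, a sodium channel gene used mostly before birth, which was at 0.97 to 1.63 CPM against 4.80, 2.56, 1.40 and 1.46 CPM. The high values were those of non-injected replicates 2 and 3, and the log2 fold change was -0.96 ± 0.44 (SE), or -0.60 with the libraries numbered 3 exchanged. Scn1a, a main sodium channel of the motoneuron axon, had -0.14 (95% interval -0.59 to 0.30). Cacna1c, an L-type calcium channel gene named here because its groups did not overlap, was at 2.31 to 3.22 CPM against 3.41 to 5.32 CPM, with an unadjusted p of 0.151.

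Injury and activity genes had 0 members at an unadjusted p under 0.05, out of 16 and 12 tested. Atf3, a transcription factor induced by axon injury, was at 5.30, 7.04, 34.0, 25.4 and 26 CPM against 17.5, 11.7, 18.0 and 21.1 CPM. The injected libraries held both the lowest and the highest values, and the log2 fold change was 0.19 (95% interval -0.91 to 1.30). Egr1, an immediate early gene, was at 7.23 to 26.1 CPM against 4.61, 11.4, 39.6 and 79.1 CPM, with a log2 fold change of -1.24 (95% interval -2.59 to 0.10). In the libraries numbered 1 to 4 alone this was 0.52. Fos had -0.11 (95% interval -1.09 to 0.87).

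The 16 neurotrophic factor receptors had 0 members at an unadjusted p under 0.05 and a median of -0.04. Cntfr, the receptor subunit for ciliary neurotrophic factor, had the smallest p of them. It ranged from 3.14 to 22.5 CPM, with a median of 6.75, against 6.64 to 36.0 CPM, with a median of 13.5, and its log2 fold change was -0.89 (95% interval -2.18 to 0.40). Ret, the signalling receptor for glial cell line-derived neurotrophic factor, was at 106 to 201 CPM against 125 to 267 CPM, with -0.24 (95% interval -0.83 to 0.36). Lifr, the receptor for leukemia inhibitory factor, had 0.19 (95% interval -0.32 to 0.71). In each of these genes the groups overlapped.

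The stress response genes together had a median near 0, with list medians from -0.15 (dismutases and antioxidant enzymes) to 0.11 (unfolded protein response). Of 84 genes in 4 lists, 1 was higher (1.19%) and 1 lower (1.19%) at an unadjusted p under 0.05, and the median log2 fold change was -0.00. Hspa5, the chaperone of the endoplasmic reticulum, was at 428, 391, 435, 648 and 451 CPM against 374, 331, 506 and 498 CPM, with 0.14 (95% interval -0.31 to 0.59). Ddit3, which drives cell death under unfolded protein stress, had 0.04 (95% interval -0.74 to 0.82). Hspa1a, the inducible heat shock chaperone, was at 4.15 to 6.75 CPM against 4.32 to 6.50 CPM.

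AAV genomes are known to engage the DNA damage response, so its p53 targets were listed. Cdkn1a, the cell cycle inhibitor p21, was at 58.6, 116, 72.6, 64.3 and 38.6 CPM against 94.8, 27.2, 57.1 and 96.4 CPM, with 0.02 (95% interval -0.81 to 0.85). Mdm2, the ubiquitin ligase for p53, was the 1 of 25 genes at an unadjusted p under 0.05. It was at 58.5, 74.9, 78.7, 52.6 and 81.9 CPM against 52.9, 50.1, 45.1 and 60.9 CPM, overlapping, with a log2 fold change of 0.41 ± 0.18 (SE). Exchanging the libraries numbered 3 lowered it to 0.14.

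Mouse Sod1, whose human counterpart is the disease transgene, was at 272, 352, 220, 278 and 320 CPM in AAV-miR ctrl and at 377, 472, 255 and 232 CPM in non-injected libraries. The groups overlapped, and the log2 fold change was -0.21 (95% interval -0.73 to 0.31). Whether reads of the transgene were counted there is not given in the sources used here. Gclm, a subunit of the rate-limiting enzyme of glutathione synthesis, was the 1 lower gene of the 23 dismutases and antioxidant enzymes at an unadjusted p under 0.05. It was at 69.5 to 103 CPM against 93.4, 143, 207 and 189 CPM, a log2 fold change of -0.86 ± 0.37 (SE), or -0.60 with the libraries numbered 3 exchanged. The median of this list was -0.15, with 18 genes under 0 and 5 above. It was -0.18 with the libraries numbered 3 exchanged and -0.14 without both.

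Genes that handle a vector were measured in 2 lists with 38 genes tested, of which 1 was higher (2.63%) and 1 lower (2.63%) at an unadjusted p under 0.05. AU040320, which encodes the AAV receptor AAVR, was at 38, 50.02, 37.6, 29 and 31.6 CPM against 26.8, 34.2, 22.5 and 37.4 CPM, with 0.30 (95% interval -0.16 to 0.76). Itgb5, an integrin subunit described as an AAV co-receptor, was at 46.0, 35.3, 32.8, 32.1 and 26.2 CPM against 40.5, 37.2, 130 and 58.2 CPM. Non-injected replicate 5 stood far above the rest. The log2 fold change was -0.95 ± 0.34 (SE), and -0.02 in the libraries numbered 1 to 4 alone.

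The microRNA machinery had 1 member at an unadjusted p under 0.05. Ago1 (chr4:126435012-126468583, minus strand), an Argonaute protein that binds microRNAs, was at 8.57, 7.76, 11.0, 9.25 and 10.02 CPM in AAV-miR ctrl libraries. Non-injected libraries were at 7.57, 6.21, 4.62 and 4.89 CPM. The groups did not overlap, though 7.76 and 7.57 CPM were next to each other. The log2 fold change was 0.68 ± 0.22 (SE), with an unadjusted p of 0.00781 and an edgeR adjusted p of 1.00. It was 0.79 without both libraries numbered 3, 0.54 with them exchanged and 0.41 in the libraries numbered 1 to 4 alone, with an unadjusted p of 0.209. The processing enzymes overlapped between the groups, Drosha at 0.11 (95% interval -0.35 to 0.57) and Dicer1 at -0.19 (95% interval -0.86 to 0.47). Over the 16 genes tested the median was 0.11, with 13 intervals within a 2-fold change.

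Immune genes lay mostly above 0. The 5 lists covered nucleic acid sensing, interferon-stimulated genes, MHC class I, T cells and lymphocytes, and inflammatory cytokines with NF-kB targets. Of their 118 genes, 97 had a positive log2 fold change and 21 a negative one, with a median of 0.35. At an unadjusted p under 0.05 there were 4 higher (3.39%, against 1.38% over all genes) and 0 lower. In all 5 lists AAV-miR ctrl replicate 1 had the highest summed level of the 9 libraries. It also had the highest sums of neutrophil, erythroid, B lineage and microglial genes (71968, 30536, 5504 and 2058 CPM), and the part of these cells in the immune values was not tested.

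Interferon-stimulated genes had the largest median of the 5, at 0.57, with 31 of 36 genes above 0 and 3 at an unadjusted p under 0.05. Their summed level was 2009, 1342, 1279, 840 and 1179 CPM in AAV-miR ctrl and 1745, 745, 1024 and 1188 CPM in non-injected libraries. These sums overlapped across nearly their whole range. The median was 0.26 without AAV-miR ctrl replicate 1 and 0.71 without AAV-miR ctrl replicate 5. It was 0.42 without both libraries numbered 3 and 0.07 with these exchanged.

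Oasl1, an interferon-induced gene that restrains translation of Irf7, was at 7.38, 1.78, 4.95, 2.84 and 13.5 CPM against 0.138, 0.740, 2.90 and 2.83 CPM, with a log2 fold change of 1.86 ± 0.71 (SE). AAV-miR ctrl replicate 6 was the highest. Cxcl10, a chemokine that draws T cells, was at 2.47, 0.819, 2.25, 0.473 and 6.19 CPM against 1.01, 0.740, 1.15 and 0.388 CPM, and again replicate 6 was the highest. Trim30a had 0.87 ± 0.40 (SE), or 0.52 with the libraries numbered 3 exchanged. Isg15, a ubiquitin-like effector of interferon, was at 62.7, 44.0, 26.5, 8.54 and 26.2 CPM against 31.6, 8.83, 18.0 and 9.57 CPM, with 0.98 (95% interval -0.14 to 2.10). Ifit1, which binds foreign RNA, had 0.34 (95% interval -0.996 to 1.68). Cmpk2, an interferon-induced nucleotide kinase named because its groups did not overlap, was at 24.7 to 40.0 CPM against 20.0 to 24.5 CPM, with an unadjusted p of 0.0552.

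Sensors of nucleic acids, 26 tested of 29 listed, had 0 members at an unadjusted p under 0.05 and a median of 0.23. The median was -0.03 without AAV-miR ctrl replicate 1 and 0.38 without non-injected replicate 5. It was 0.06 with the libraries numbered 3 exchanged and 0.14 without both. Tlr9, the endosomal receptor for unmethylated DNA such as that of AAV genomes, had 14, 10, 2, 5 and 14 counts in AAV-miR ctrl and 4, 4, 0 and 2 in non-injected libraries. At such counts the fold change was poorly determined, and its interval ran from -0.10 to 3.59. MHC class I genes, which present peptides to T cells, had 0 of 22 at an unadjusted p under 0.05. Of these, 21 of 22 lay above 0, with a median of 0.30. It was 0.11 without AAV-miR ctrl replicate 1 and 0.47 without non-injected replicate 5. With the libraries numbered 3 exchanged it was 0.08, and without both 0.28. B2m was at 1558, 868, 923, 719 and 794 CPM against 898, 421, 904 and 687 CPM, with 0.42 (95% interval -0.19 to 1.02).

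T cell and lymphocyte genes had a median of 0.41 over 17 genes. It was 0.01 without AAV-miR ctrl replicate 1 and 0.77 without non-injected replicate 2. With the libraries numbered 3 exchanged it turned to -0.26, and without both it was 0.26. AAV-miR ctrl replicate 1 summed to 816 CPM over the list, and the other 8 libraries to between 207 and 375 CPM. Cd3e, a defining T cell receptor component, was at 2.65, 2.07, 0.375, 0.131 and 1.96 CPM against 2.95, 0.399, 0.449 and 0.984 CPM. Cd4 was the 1 member at an unadjusted p under 0.05. Inflammatory cytokine and NF-kB target genes had 0 of 17, and their median of 0.16 turned to -0.17 with the libraries numbered 3 exchanged. Without both it was 0.15.

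**Figure D4:**
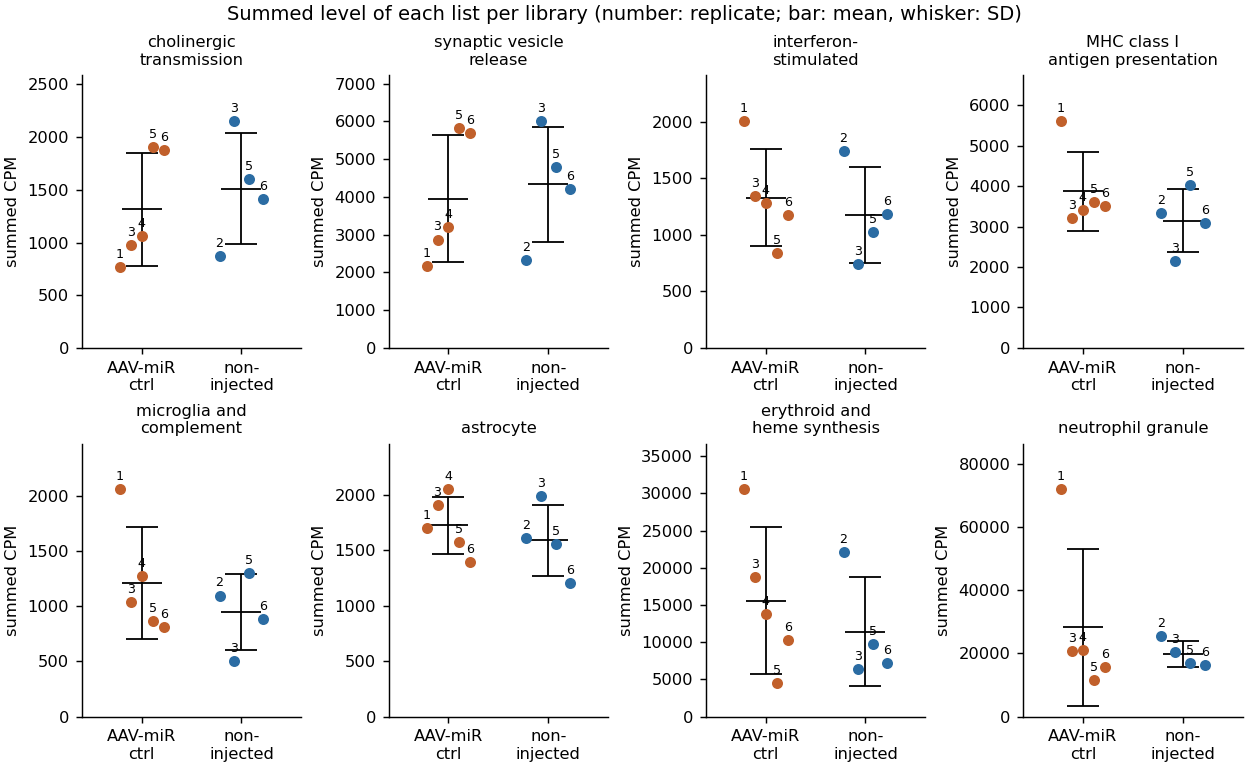
Summed CPM of 8 gene lists in each library (points, numbered by replicate; wide bar, mean; whiskers, SD; n = 5 and 4), with different vertical scales. The groups overlap in all 8, AAV-miR ctrl replicate 1 is the highest in the interferon, MHC class I, microglia, erythroid and neutrophil panels, and the cholinergic sums run from 765 to 2153 CPM.

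Genes of other cells were present in all 9 libraries. Of 180 genes in 11 lists, 5 were higher (2.78%) and 2 lower (1.11%) at an unadjusted p under 0.05, and the median log2 fold change was 0.28. Only 37 of these genes (20.6%) had an interval within a 2-fold change. Microglial and complement genes had a median of 0.29 over 19 genes, and Cx3cr1 was the 1 gene at an unadjusted p under 0.05. The median was 0.04 without AAV-miR ctrl replicate 1 and 0.45 without non-injected replicate 2. It was -0.01 with the libraries numbered 3 exchanged and 0.12 without both. Aif1 was at 32.0, 17.2, 14.1, 8.31 and 15.0 CPM against 16.6, 7.46, 16.1 and 6.95 CPM. C1qa had 0.31 (95% interval -0.38 to 1.01).

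Astrocytes are the cells in which the series' anti-SOD1 microRNA is expressed. Their 17 genes had a median of 0.45, with 13 above 0 and 0 at an unadjusted p under 0.05. Gfap, their intermediate filament, was at 178, 199, 271, 20.4 and 28.9 CPM in AAV-miR ctrl and at 96.2, 104, 91.0 and 53.4 CPM in non-injected libraries. The injected libraries were split to both sides of the non-injected ones, and the log2 fold change was 0.70 (95% interval -0.65 to 2.04). Aldh1l1 had -0.38 (95% interval -1.24 to 0.47) and Aqp4, the astrocyte water channel, 0.51 (95% interval -0.19 to 1.21). The median was 0.18 without AAV-miR ctrl replicate 4 and 0.58 without AAV-miR ctrl replicate 6. It was 0.23 with the libraries numbered 3 exchanged and 0.46 without both.

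Reactive astrocyte genes had 1 higher and 1 lower of 20 at an unadjusted p under 0.05, Cxcl10 and Ptx3. Ptx3, a pentraxin, was at 1.46 to 3.45 CPM against 2.12, 2.79, 7.77 and 9.93 CPM, and its log2 fold change of -1.23 ± 0.50 (SE) became 0.27 in the libraries numbered 1 to 4 alone. Myelin genes had 0 of 18 and endothelial genes 0 of 20. Mbp, a myelin protein, was at 2477, 2022, 3010, 681 and 904 CPM against 1882, 1616, 1729 and 1209 CPM. Pecam1, an endothelial adhesion molecule, had 0.26 (95% interval -0.46 to 0.98). Slc32a1, the vesicular transporter of inhibitory interneurons, was separated by a narrow gap, at 4.03 to 6.89 CPM against 2.05 to 4.01 CPM, with an unadjusted p of 0.235. Of the 9 interneuron transmitter genes tested, 4 lay above 0 and 5 under it, with a median of -0.03. Gad1 had -0.36 (95% interval -1.60 to 0.88) and Slc6a5 0.27 (95% interval -0.46 to 1.01).

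Blood, marrow and bone genes were abundant and uneven. Hbb-bs, an adult haemoglobin chain, was at 15094, 8866, 6852, 1715 and 3984 CPM against 10962, 2941, 3786 and 2948 CPM. S100a8, a neutrophil granule protein, was at 20484 CPM in AAV-miR ctrl replicate 1, at 2296 to 6606 CPM in the other injected libraries and at 2864 to 7640 CPM in the non-injected ones. Neutrophil genes had a median of 0.39, which was -0.20 without AAV-miR ctrl replicate 1 and 0.55 without AAV-miR ctrl replicate 5. Erythroid genes had 0.23, or -0.02 without AAV-miR ctrl replicate 1 and 0.59 without non-injected replicate 2. With the libraries numbered 3 exchanged the erythroid median was -0.19, and without both 0.02. The 16 B lineage genes had 0.59, with all 16 above 0 and 0 at an unadjusted p under 0.05. Their median was 0.03 with the libraries numbered 3 exchanged and 0.41 without both. It was 0.36 without AAV-miR ctrl replicate 1 and 0.93 without non-injected replicate 2.

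Bone and connective tissue genes had 3 of 17 higher at an unadjusted p under 0.05, where 1.38% of all genes were. Bglap, osteocalcin of bone-forming cells, was at 1876, 589, 735, 1221 and 217 CPM against 345, 220, 756 and 118 CPM, a log2 fold change of 1.37 ± 0.63 (SE). Its near-identical neighbour Bglap2 had 1.45 ± 0.59 (SE). Reads aligned to several places were not counted for genes, and whether their loss changed either fold change was not tested. Exchanging the libraries numbered 3 gave 0.92 and 0.88, at unadjusted p of 0.195 and 0.197. Col2a1, the collagen of cartilage, was at 1235 CPM in AAV-miR ctrl replicate 5 and at 2.11 to 80.6 CPM in the other 8 libraries. Its log2 fold change of 3.22 turned to -0.59 without that library. Col1a1 was at 10019, 3715, 3247, 10528 and 2112 CPM against 2174, 1590, 6713 and 1382 CPM. Ttr, the choroid plexus carrier of thyroid hormone, was at 1.28, 2.75, 2.47, 1.89 and 6.77 CPM against 3.55, 9.22, 6.99 and 7.99 CPM, with -1.19 ± 0.51 (SE). This was -0.30 with the libraries numbered 3 exchanged (unadjusted p of 0.620) and -0.97 without both (0.140).

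Energy and translation genes were the most even. Of 68 genes, 60 (88.2%) had an interval within a 2-fold change, 0 had an unadjusted p under 0.05 and the median was -0.04. Nuclear-encoded respiratory chain subunits had 29 of 30 genes under 0 at a median of -0.13. It was -0.01 without AAV-miR ctrl replicate 1 and -0.22 without non-injected replicate 5. mt-Co1, a mitochondrial cytochrome oxidase subunit, was at 2118, 4546, 3814, 2688 and 3078 CPM against 4519, 3584, 2386 and 3288 CPM. Counts for 5 of 13 mitochondrially encoded genes were 0 in all 9 libraries, and these were not tested. Ribosomal protein genes had a median of 0.12 over 30 genes, which was -0.05 without non-injected replicate 6 and 0.40 without non-injected replicate 2.

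ALS-linked genes had 0 of 29 at an unadjusted p under 0.05, a median of -0.06, or 0.11 with the libraries numbered 3 exchanged, and 23 intervals within a 2-fold change. Tardbp, which encodes the RNA-binding protein TDP-43, was at 71.1, 66.3, 62.9, 68.7 and 57.2 CPM against 69.2, 61.8, 55.0 and 48.3 CPM, with 0.16 (95% interval -0.16 to 0.47). Its interval lay well within a 2-fold change. Taf15, another RNA-binding protein gene, had the smallest p of the list and 0.71 (95% interval -0.06 to 1.49).

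Notch genes were listed because of Maml1. Of 27 genes tested, 13 had a positive and 14 a negative log2 fold change, 1 was higher (Maml1) and 2 lower at an unadjusted p under 0.05, and the median was -0.06. Neurl1b, among the higher genes with the smallest p, was not on this list. Its log2 fold change was 1.48 ± 0.46 (SE), or 0.48 with the libraries numbered 3 exchanged. Hes1, a target that Notch activates, was at 15.3, 13.1, 17.2, 15.9 and 12.2 CPM against 14.9, 19.3, 29.7 and 25 CPM, a log2 fold change of -0.59 ± 0.22 (SE). Rfng, a glycosyltransferase that tunes Notch receptors, had -1.05 ± 0.46 (SE). These were -0.37 and -0.76 with the libraries numbered 3 exchanged. Rab GTPases were listed because of Rab12, which was the 1 of 24 at an unadjusted p under 0.05. The median of these genes was -0.05, and 19 of them had an interval within a 2-fold change. Both lists were chosen after these genes had been seen in the same data.

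**Figure D5:**
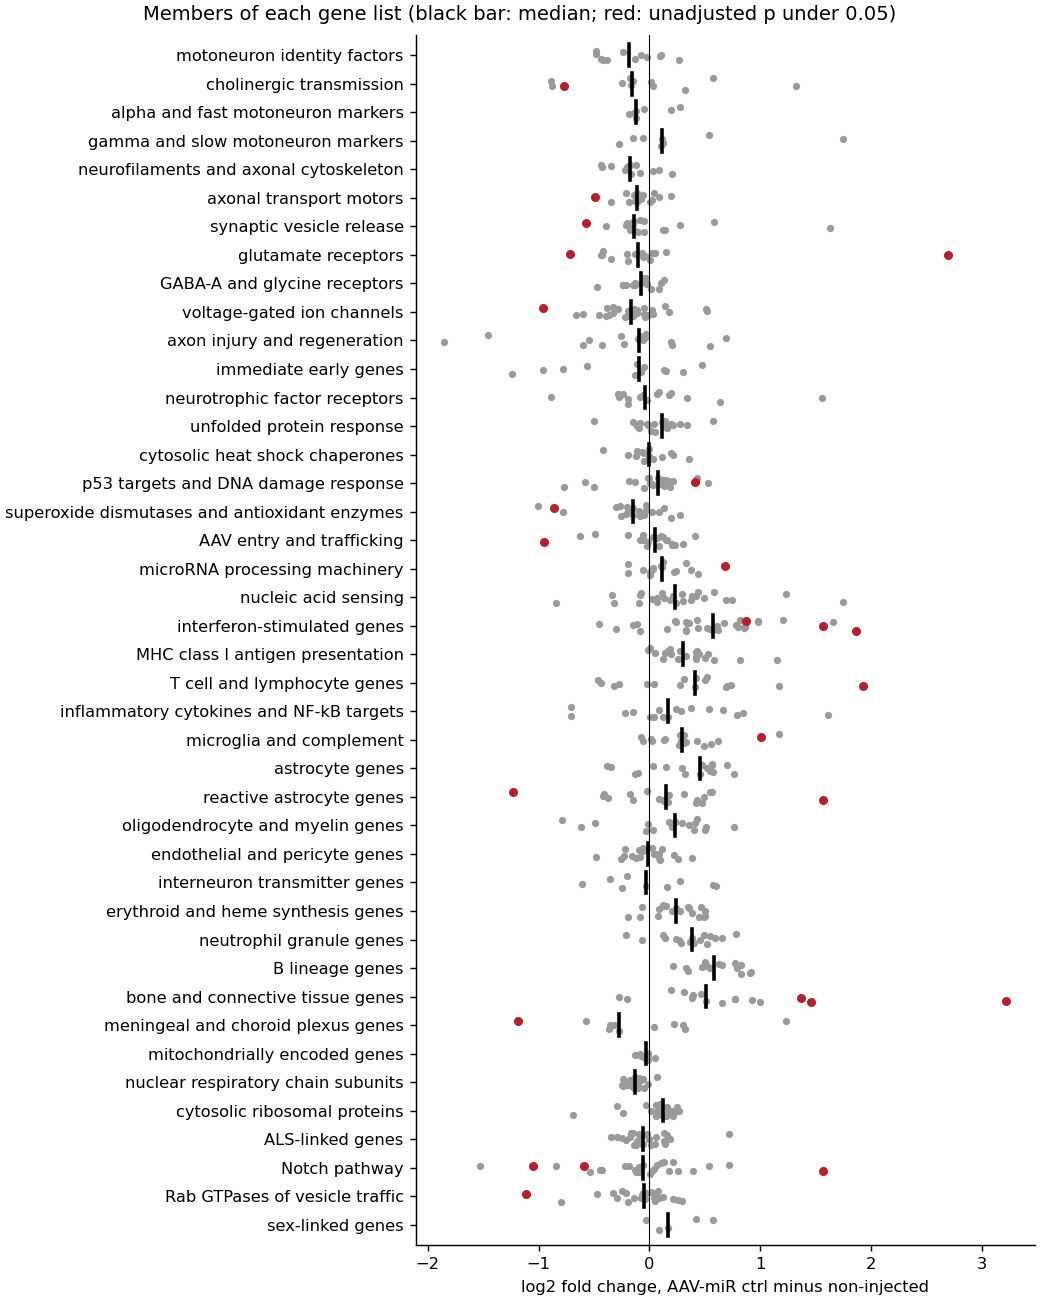
Log2 fold change of AAV-miR ctrl minus non-injected for the tested members of 42 gene lists (points; red, unadjusted p under 0.05; black bar, list median). Of 740 genes, 24 (3.24%) are at an unadjusted p under 0.05, 12 in each direction; interferon-stimulated genes have a median of 0.57 and motoneuron identity factors one of -0.18.

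Over the 42 lists together, 740 genes were tested and 24, or 3.24%, had an unadjusted p under 0.05, where the share over all genes was 3.61%. Of these 24, 12 were higher and 12 lower. The groups did not overlap in 8 list members (1.08%), where 0.816% of all genes were separated in either direction, and 0 had an adjusted p under 0.05. Leaving out 1 library at a time moved the count of 24 to between 16, without non-injected replicate 6, and 51, without non-injected replicate 2. It was 40 without AAV-miR ctrl replicate 5 and 38 without non-injected replicate 5.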

How the data were processed

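The authors deposited raw read counts per gene, 1 table per library, with 48709 Ensembl gene rows and 5 summary rows. Per the submitters' processing notes, cutadapt 1.8, STAR 2.5.2b, HTSeq 0.6.1 and GRCm38 were used. The annotation release and strand setting are not given in the sources used here. Reads in no feature made up 1.71 to 2.92% of all records, ambiguous reads 1.79 to 3.00% and reads aligned to several places 42.3 to 53.8% in the 9 libraries, and these stayed out of the library sizes. RNA had been amplified from a few nanograms with a kit whose reads carry no molecular identifiers, so that amplification can add to the spread between libraries. GENCODE M21 (GRCm38) gave symbols for 48349 identifiers, covering 99.986% of counts, and the coordinates printed.

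Groups came from titles. Column headers of 2 tables contradicted the titles, which were followed. The analysis ran in R 4.3.3 with edgeR 4.0.16. After filterByExpr, with a minimum count of 10 and a total of at least 15, 17403 genes remained. Library sizes were scaled by TMM. Genes were tested by quasi-likelihood F (edgeR) on all 13 libraries with 3 groups and no covariate, contrast AAV-miR ctrl minus non-injected and adjusted by Benjamini-Hochberg, with 0.05 as threshold. The common biological coefficient of variation was 0.470. Standard errors were derived from the fold change and F. Overlap was read from log2 CPM with a prior count of 2, and 3 counts correspond to 0.0802 to 0.216 CPM. Library measures were compared by exact permutation tests. By the labels each library is from a separate mouse, and the p-values measure the spread between them. The smallest chi-square per degree of freedom over the 36 pairs of libraries was 35.8, so none repeated another within sampling noise.

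Genes named are the 12 per direction with the smallest p, at a mean of at least 1 CPM and with a named symbol; genes called by DESeq2 1.42.0; Sod1 and genes marked as defining their list; and from each list the members at an unadjusted p under 0.05 or, with none, the member with the smallest p, not all of which are printed. Cacna1c, Cmpk2, Ret and Lifr fall outside this rule and were added after their values had been seen. The comparison, the 42 gene lists and the alternatives were chosen with earlier results of these data known, so that no list is independent support for a direction. A few list members were left out of the lists and are not reported here. Alternatives were other scalings, filters and tools (limma 3.58.1 for limma-voom), fits on fewer libraries, the replicate number as a block, Y-linked, erythroid and motoneuron covariates, and exchange of the libraries numbered 3. Leaving both of these out was added after seeing the data. The scripts were tested on simulated data.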

Additional observations from a re-analysis of the deposited data

Results flagged for a closer look

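Single libraries standing apart within a group were searched in 156 sets of 4 or 5 values: library measures, levels of named genes, and list scores, which are means of log2 CPM centred per gene. They were found in 14 sets, where independent and unselected sets would give about 1 in 20, or 7.8. These sets share libraries and include genes picked for a small p, so an excess over chance cannot be read from the 14. The gap to the nearest other library took up more of the group's range than Dixon's 95% limit allows in each of the 14. Of the 14, 8 concerned AAV-miR ctrl replicate 1, and 4 were of non-injected replicate 2. No explanation was tested.

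AAV-miR ctrl replicate 1 had 23103 genes with at least 1 count, and the other libraries of its group 21672 to 21946. Its Cx3cr1 level was 4.76 log2 CPM, where the others had 3.55 to 3.87. Fzd9 was at 2.05 log2 CPM in it and at 2.75 to 2.98 in the others. Its score was 0.920 for nucleic acid sensing, 0.858 for MHC class I and 1.51 for neutrophil granule genes, where the highest of the other scores were -0.0503, 0.0795 and -0.0986. For heat shock chaperones it scored -0.569 and for nuclear respiratory chain subunits -0.684, where the lowest of the others were -0.0163 and -0.0283.

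Non-injected replicate 2 lay at 70.4 on the first principal component, and the other 3 between -42.7 and -30.4. Med13 was at 4.02 log2 CPM in it and at 3.47 to 3.54 in the others. It scored -0.369 for the unfolded protein response and -0.143 for Rab GTPases, where the lowest of the others were 0.0388 and 0.120. Voltage-gated ion channel genes scored 0.4035 in non-injected replicate 3 and at most 0.001875 in the rest of its group. Man2a2 was at 4.395 log2 CPM in AAV-miR ctrl replicate 6 and at 4.71 to 4.83 in the others.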

How the results depend on the processing

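With an adjusted p under 0.05 there were 0 genes under 22 of 23 alternatives, and 2 with DESeq2. In the main fit the threshold of 0.1 also gave 0. With DESeq2, Otud3 (adjusted p of 0.070) and Rab12, Zdhhc2 and Cybrd1 (0.098 each) were among further genes under 0.1. Of genes at an unadjusted p under 0.05 (629, with 240 higher and 389 lower), no gene filter gave 1601 (761 higher and 840 lower). The higher genes were 147 with the stricter filter, 136 in the 9 libraries alone, 110 with the replicate block and 682 in the libraries numbered 1 to 4, where 245 were lower. Leaving out 1 library at a time gave 516 to 1008 genes, 149 to 455 higher and 217 to 553 lower. List members at an unadjusted p under 0.05, 24 in all, were 57 in the libraries numbered 1 to 4 and 16 to 51 with 1 library left out. Genes without overlap, 52 higher and 90 lower, became 99 higher with the libraries numbered 3 exchanged. With 1 library left out, which makes separation easier, they were 87 to 174 higher and 135 to 349 lower.

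For named genes at an unadjusted p under 0.05, the sign of the log2 fold change was followed, and 4 of 45 changed it. These were Igkv6-25 (-5.69) and Grik1 (-0.49) with the libraries numbered 3 exchanged, Ptx3 (0.27) in the libraries numbered 1 to 4 alone and Col2a1 (-0.59) without AAV-miR ctrl replicate 5. For Col2a1 the values with 1 library left out ran from -0.59 to 4.64. Of the other 74 named genes, 53 changed sign under at least 1 of the 23 alternatives, and no direction is read from them. DESeq2 moved Maml1 and ENSMUSG00000087594 past the threshold. The cause of these changes was not tested.

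Replicate numbers came from the titles and do not pair the mice. Same-numbered libraries had correlations of their deviations from the group means of -0.11 (number 3), 0.19 (number 5) and 0.04 (number 6), and not every library correlated best with its own number. The replicate block gave 484 genes at an unadjusted p under 0.05, with 110 of them higher and 374 lower, and 0 after adjustment.

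Library measures kept an adjusted p above 0.05 under each alternative run. With 5 against 4 libraries, many genes have intervals wider than a 2-fold change, and most genes under 10 CPM do, so smaller differences could not be detected there.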

Other observations

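The labels give no sex. The 5 sex-linked genes tested formed 1 of the 42 lists, with 0 at an unadjusted p under 0.05. Xist had 2217, 944, 633, 18 and 147 counts in AAV-miR ctrl replicates 1, 3, 4, 5 and 6 and 1697, 15, 221 and 698 counts in non-injected replicates 2, 3, 5 and 6. Ddx3y had 9, 1, 254, 2383 and 1707 counts in the former and 3, 1285, 1302 and 2 in the latter. AAV-miR ctrl replicate 4 held at least 254 counts of both, and non-injected replicate 5 and AAV-miR ctrl replicate 6 held high Ddx3y with 221 and 147 counts of Xist. With the Y-linked genes as a covariate, 653 genes had an unadjusted p under 0.05 and 0 an adjusted one.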
